A study of Mus musculus with 6 samples.

Results

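Neurotrophin and GDNF receptors and ligands were described in the retina of newborn mice as a set of 8 genes: the receptor genes Ntrk2, Ntrk3, Ngfr, Ret and Gfra1 and the ligand genes Bdnf, Ntf3 and Gdnf. Each gene was read by the transcript cluster, the group of array probes that covers a transcript, whose annotation names that gene alone. Of 19938 genes with such a cluster, 7 were of the set, each with 1 cluster, and Ntf3 was not analysed here. The membership was fixed by name and no measured value was a criterion for it, though earlier results of these data were known.

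Retinae came from mice at postnatal day 0 on a C57BL/6NTac background, labelled as 3 Meg2 knockout and 3 wild-type animals. Meg2, a protein tyrosine phosphatase, is the product of Ptpn9. The labels do not give the part of the gene that was deleted or the cells in which it was lost. By the labels, total RNA of both retinae of an animal was hybridised to 1 array. The values are log2 signals, on which a step of 1 is a doubling. Whole retina was used, so a change in the number of cells of a type and a change in RNA per cell cannot be told apart.

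Neurotrophins are secreted growth factors that are made as proproteins and bind Trk receptor tyrosine kinases, and the shared p75 receptor encoded by Ngfr. GDNF binds the lipid-anchored co-receptor GFRA1, and the pair engages the receptor tyrosine kinase RET. In the retina, BDNF acting on TrkB, the product of Ntrk2, is known as a survival factor of ganglion cells, while p75 is known in Muller glia and GDNF as a survival factor for retinal neurons.

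The array medians over all clusters lay between 7.84 and 7.91, and Pearson's r between arrays over the tested clusters was 0.997 to 0.998. Ptpn9 read 9.31, 9.58 and 9.28 in the knockout and 10.05, 9.93 and 9.94 in the wild type, so no knockout array reached a wild-type array. Its difference was -0.58 on the log2 scale (limma, adjusted p = 0.437), so Ptpn9 did not pass correction over all tested clusters. Of those clusters, 8.43% had no overlap in one direction or the other. Both replicate 2 arrays carried Xist signal (12.54 and 12.55 in knockout and wild type) together with signal of the Y-linked gene Uty (7.18 and 7.67), a mixture that the label of 1 animal per array does not give. The replicate 1 arrays carried Xist with Uty at 5.22 and 4.71, and the replicate 3 arrays carried Uty at 9.53 and 9.34 with Xist at 6.26 and 6.52. All 9 measured ganglion cell markers, 10 amacrine and horizontal cell markers, 7 progenitor markers and 7 photoreceptor markers averaged above the background reference described below.

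Reference sequence upstream of the transcription start shows how differently these genes begin. RefSeq windows on GRCm38.p6 matched 6 of the 8 genes, with 7 separate starts for Bdnf, 2 for Gdnf, 2 for Ntf3 and 1 each for Gfra1, Ngfr and Ntrk2. Ntrk3 and Ret had none. The single cluster of Bdnf, like that of Gdnf, reads the gene as a whole, so use of one start or another was not measured. Below are the 250 bases upstream of the start of Ngfr, of Gfra1, which had the widest difference between the genotypes, and of 1 start of each of the ligand genes Bdnf and Gdnf. Capitals mark matches on either strand to 3 motifs. The GC box is spelled GGGCGG, the motif of the TATA-binding protein is spelled TATAAA, and the core of the cyclic AMP response element is spelled TGACG.

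Ngfr, chr11:95587699-95587948, minus strand: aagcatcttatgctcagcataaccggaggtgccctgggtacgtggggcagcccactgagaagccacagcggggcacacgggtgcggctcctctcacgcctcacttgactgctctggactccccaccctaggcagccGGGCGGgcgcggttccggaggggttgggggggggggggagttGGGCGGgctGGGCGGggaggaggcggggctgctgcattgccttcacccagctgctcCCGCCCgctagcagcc
Gfra1, chr19:58455399-58455648, minus strand: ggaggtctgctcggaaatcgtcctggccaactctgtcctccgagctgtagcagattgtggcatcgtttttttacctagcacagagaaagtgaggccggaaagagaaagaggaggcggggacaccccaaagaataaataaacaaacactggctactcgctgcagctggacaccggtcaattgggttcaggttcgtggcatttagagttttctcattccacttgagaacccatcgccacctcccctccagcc
Bdnf, chr2:109692186-109692435, plus strand: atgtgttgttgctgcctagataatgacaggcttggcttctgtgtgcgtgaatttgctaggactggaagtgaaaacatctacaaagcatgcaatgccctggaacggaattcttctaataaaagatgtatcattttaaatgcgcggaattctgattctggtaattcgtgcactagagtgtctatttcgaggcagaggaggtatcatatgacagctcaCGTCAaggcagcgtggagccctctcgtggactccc
Gdnf, chr15:7809798-7810047, plus strand: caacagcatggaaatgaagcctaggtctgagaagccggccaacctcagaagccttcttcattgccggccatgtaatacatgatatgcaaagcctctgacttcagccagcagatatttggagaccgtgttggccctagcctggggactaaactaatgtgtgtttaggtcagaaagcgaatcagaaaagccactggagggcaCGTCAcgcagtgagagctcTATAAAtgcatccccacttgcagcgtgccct

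The Ngfr window held 4 matches to GGGCGG and had a GC content of 70.4%, against a median of 52.4% over all 32851 windows, of which 32.7% held at least 1 such match and 4.09% at least 4. The Gfra1 window held none of the 3 motifs. The printed Bdnf window was the 1 of 7 with TGACG, a motif found in 17.8% of all windows. The printed Gdnf window held 1 TGACG and 1 TATAAA, the latter found in 12.4% of all windows. No base lay in 2 motifs in any of the 14 windows of the set. Of the 14 windows of the set, 5 held GGGCGG, 2 held TGACG and 1 held TATAAA. A match is a run of letters and not evidence of binding.

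The signal of each gene was first set against clusters that should find little RNA in a retina. The 1035 clusters of olfactory receptor genes, which are mostly silent outside the nose, had a median of 5.44 and a 95th percentile of 7.18 on the log2 scale. Of the 7 genes, 6 averaged above that percentile and Bdnf, at 7.08, below it. Probes differ in how well they bind, so these values say whether a signal stood clear of background, and they do not rank one gene against another. A difference between genotypes is usually compressed in signal this close to background, which applies to Bdnf and, at 7.58, to Gdnf.

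**Figure D1:**
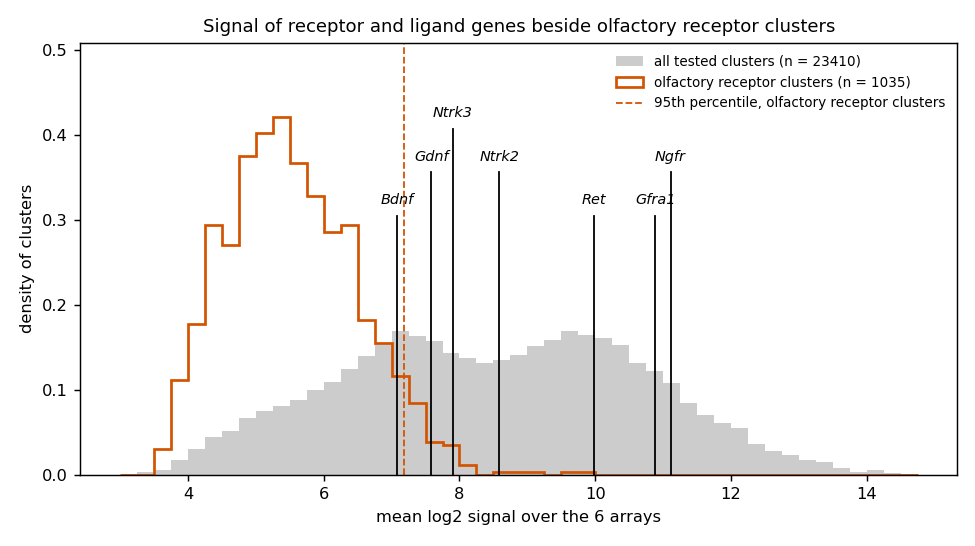
Density of clusters (vertical axis) by mean log2 signal over the 6 arrays (horizontal axis), for all 23410 tested clusters in grey and 1035 olfactory receptor clusters in orange, with black lines at the 7 genes. Bdnf lies left of the dashed 95th percentile of the olfactory receptor clusters at 7.18, and the other 6 genes lie right of it.

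The question for each gene was whether its transcript differed between the Meg2 knockout and the wild type. No gene of the 7 survived adjustment over all clusters (limma, adjusted p = 0.9995 for each), and neither did any cluster with a named gene, a called share of 0% of 23410, with a lowest adjusted p of 0.0781 in limma. At an unadjusted p under 0.05, 803 of those clusters stood, which is 3.43%, and 1 of the 7 genes, Gfra1. In none of the 7 genes were the knockout and wild-type arrays apart, against 8.43% of all tested clusters without overlap. Of the 7 differences, 5 lay above 0 and 2 below, with a median of 0.051, where 50.7% of all tested clusters lay above 0 and their median was 0.0012.

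**Figure D2:**
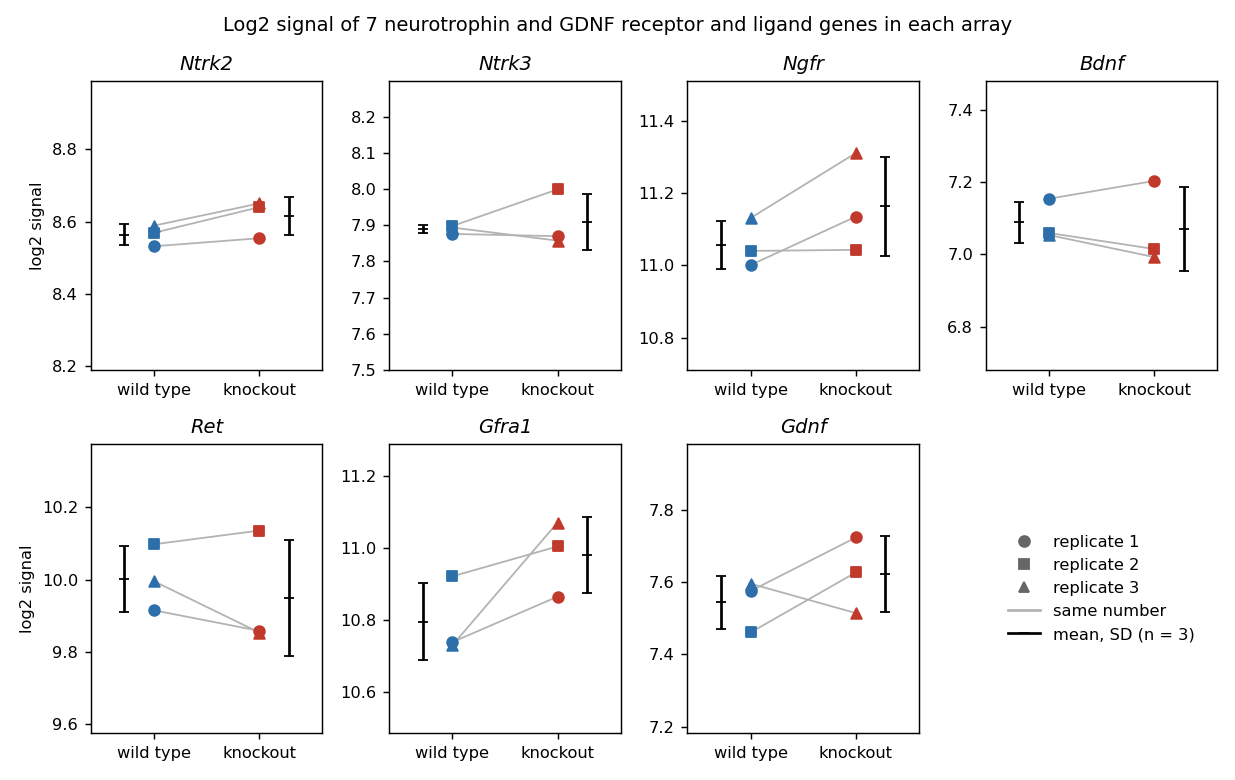
Log2 signal (vertical axis, the same span of 0.8 in each panel) of 7 genes in each wild-type and knockout array, with replicate numbers as symbols, grey lines joining arrays of the same number, and black bars for the mean and SD (n = 3). In each panel the knockout and wild-type points overlap in range. Gfra1, Ngfr and Ntrk2 have 3 upward lines of unequal slope, with the Ngfr line of replicate 2 nearly flat.

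Among the Trk receptors, Ntrk2 encodes TrkB, the receptor of BDNF. Its signal was 8.55, 8.64 and 8.65 in the knockout and 8.53, 8.57 and 8.59 in the wild type. The groups overlapped through the knockout replicate 1 array, which lay below wild-type replicates 2 and 3. The means were 8.61 ± 0.053 and 8.56 ± 0.029 (SD, n = 3), a difference of 0.051 (95% interval -0.079 to 0.18; limma, adjusted p = 0.9995). It was 0.082 without knockout replicate 1, 0.034 without knockout replicate 3 and 0.042 without both replicate 2 arrays. On the linear scale the interval runs from 0.946 to 1.13 times wild type. The cluster does not separate the kinase form of TrkB from its truncated forms.

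Ntrk3 encodes TrkC, the receptor of neurotrophin-3. Its wild-type arrays were close together at 7.88, 7.90 and 7.89, and the knockout arrays read 7.87, 7.999 and 7.86. The wild-type values lay inside the knockout range, with knockout replicate 2 above and the other knockout arrays below all of them. The difference was 0.020 (SE 0.061; 95% interval -0.12 to 0.16; limma, adjusted p = 0.9995), and it was 0.039 without knockout replicate 1, -0.026 without knockout replicate 2, 0.045 without knockout replicate 3, 0.013 without wild-type replicate 1 and -0.021 without both replicate 2 arrays.

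Ngfr, the p75 receptor shared by all neurotrophins and their proforms, read 11.13, 11.04 and 11.31 in the knockout and 11.001, 11.04 and 11.13 in the wild type. Knockout was the higher array for each of the 3 replicate numbers, by 0.13, 0.0032 and 0.18, and the group ranges overlapped. The means were 11.16 ± 0.14 and 11.06 ± 0.067 (SD, n = 3), a difference of 0.11 (SE 0.079; 95% interval -0.074 to 0.29; limma, adjusted p = 0.9995). Fitted with the replicate number as a block, the Ngfr SE was 0.053 (limma, unadjusted p = 0.0901, adjusted p = 0.599). The knockout replicate 3 array stood highest, and without it the difference was 0.032. The difference was 0.17 without knockout replicate 2 and 0.16 without both replicate 2 arrays. Knockout replicate 3 also had the highest mean of the astrocyte markers (0.071 above the average of the 6 arrays), the vascular endothelial markers (0.27) and the lens markers (0.24). Among the lens genes Cryaa (8.70, mean 7.80) and Cryba1 (7.32, mean 6.29) stood out there, and Crybb1 and Crybb3 were also highest. Cryba4, Mip, Lim2, Bfsp1, Bfsp2 and Gja3 were higher in another array. Of the astrocyte genes, Pdgfra (9.06, mean 8.70) and Aldh1l1 were highest in knockout replicate 3. Gfap, Pax2, Aqp4 and S100b were higher in another array. Of the vascular genes, Cdh5, Pecam1, Emcn and Cldn5 were highest in knockout replicate 3, and Kdr, Tek and Esam in another array. Cryba1, the astrocyte genes Aqp4 and S100b and the vascular genes Pecam1, Tek and Emcn averaged under the background reference. Knockout replicate 3 was the highest array in 8 of 13 marker lists, among them photoreceptor (0.19), microglia (0.18) and amacrine and horizontal cell markers (0.084). Their part in the Ngfr value was not tested.

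Ret, the signalling receptor of the GDNF family, read 9.86, 10.14 and 9.85 in the knockout and 9.92, 10.10 and 9.996 in the wild type. The replicate 2 array was highest in both genotypes, and knockout replicates 1 and 3 lay below every wild-type array. The means were 9.95 ± 0.16 and 10.003 ± 0.092 (SD, n = 3), a difference of -0.054 (SE 0.089; 95% interval -0.26 to 0.15; limma, adjusted p = 0.9995). Fitted with the replicate number as a block, the Ret SE was 0.053 (limma, unadjusted p = 0.346, adjusted p = 0.788). The difference was -0.15 without knockout replicate 2, -0.098 without wild-type replicate 1 and -0.099 without both replicate 2 arrays. It was -0.0084 without knockout replicate 1, -0.0061 without knockout replicate 3 and -0.0063 without wild-type replicate 2. The mean of the 9 ganglion cell markers followed a similar order, at -0.098, 0.15 and -0.12 in the knockout and -0.045, 0.071 and 0.042 in the wild type relative to the 6 arrays. Their part in the Ret value was not tested.

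Gfra1, the co-receptor that presents GDNF to RET, had the largest difference of the 7 genes. It read 10.86, 11.004 and 11.07 in the knockout and 10.74, 10.92 and 10.73 in the wild type. Wild-type replicate 2 lay above knockout replicate 1, and this pair alone made the groups overlap. The means were 10.98 ± 0.10 and 10.80 ± 0.11 (SD, n = 3).

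Knockout Gfra1 signal was 1.14 times wild type, with a 95% interval from 1.003 to 1.29 (log2 0.18, SE 0.079). It did not pass correction (limma, adjusted p = 0.9995), and its unadjusted p was 0.0455 in limma, where 3.43% of all tested clusters lay under 0.05. Knockout was the higher array for each replicate number, by 0.13, 0.084 and 0.34. Gfra1, Ngfr and Ntrk2 were the 3 of 7 genes with this pattern, which 16.5% of all tested clusters had. The difference was 0.14 without knockout replicate 3, 0.25 without wild-type replicate 2 and 0.23 without both replicate 2 arrays.

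With the replicate number as a block, 2063 clusters, or 8.81%, had an unadjusted p under 0.05, and Gfra1 was again the 1 gene of the 7 (limma, unadjusted p = 0.0232, adjusted p = 0.53). Amacrine and horizontal cell markers lay above 0 in 8 of 10 members, where 50.7% of all tested clusters did. Their array means ran from -0.036 to 0.084 in the knockout and from -0.034 to 0.00071 in the wild type. Ganglion cell markers lay above 0 in 3 of 9, with array means from -0.12 to 0.15 and from -0.045 to 0.071. The vascular endothelial list had 6 of 7 above 0, with knockout means from -0.11 to 0.27 and wild-type means from -0.17 to 0.0050, and its members Pecam1, Tek and Emcn averaged under the background reference. Other marker lists also had most members above 0: 8 of 10 for lens, 5 of 6 for astrocytes and 4 of 6 for pericytes. Microglia, photoreceptor and pigment epithelium markers had 5 of 7 each. Progenitor markers had 4 of 7, Schwann cell and oligodendrocyte markers 3 of 4, periocular mesenchyme markers 3 of 7 and skeletal muscle markers 2 of 7. The part of these lists in the Gfra1 value was not tested.

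Among the ligands, Bdnf encodes brain-derived neurotrophic factor. It read 7.20, 7.02 and 6.99 in the knockout and 7.15, 7.06 and 7.05 in the wild type. The replicate 1 array was highest in both genotypes and the groups overlapped. The difference was -0.019 (SE 0.073; 95% interval -0.18 to 0.15; limma, adjusted p = 0.9995), and it was 0.0090 without knockout replicate 2, 0.020 without knockout replicate 3 and 0.014 without wild-type replicate 1. It was -0.085 without knockout replicate 1, -0.034 and -0.036 without wild-type replicates 2 and 3, and -0.0059 without both replicate 2 arrays. Bdnf signal did not stand clear of background in these arrays.

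Gdnf encodes the glial cell line-derived neurotrophic factor itself. It read 7.72, 7.63 and 7.51 in the knockout and 7.58, 7.46 and 7.60 in the wild type. Knockout replicates 1 and 2 lay above every wild-type array, and knockout replicate 3 lay among them. The difference was 0.078 (SE 0.072; 95% interval -0.087 to 0.24; limma, adjusted p = 0.9995). It was 0.13 without knockout replicate 3, 0.027 without knockout replicate 1, 0.036 without wild-type replicate 2 and 0.033 without both replicate 2 arrays. Skeletal muscle markers, checked because muscle makes GDNF, lay above 0 in 2 of 7, where 50.7% of all tested clusters did. Their array means ran from -0.057 to 0.082 in the knockout and from -0.028 to 0.053 in the wild type.

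**Figure D3:**
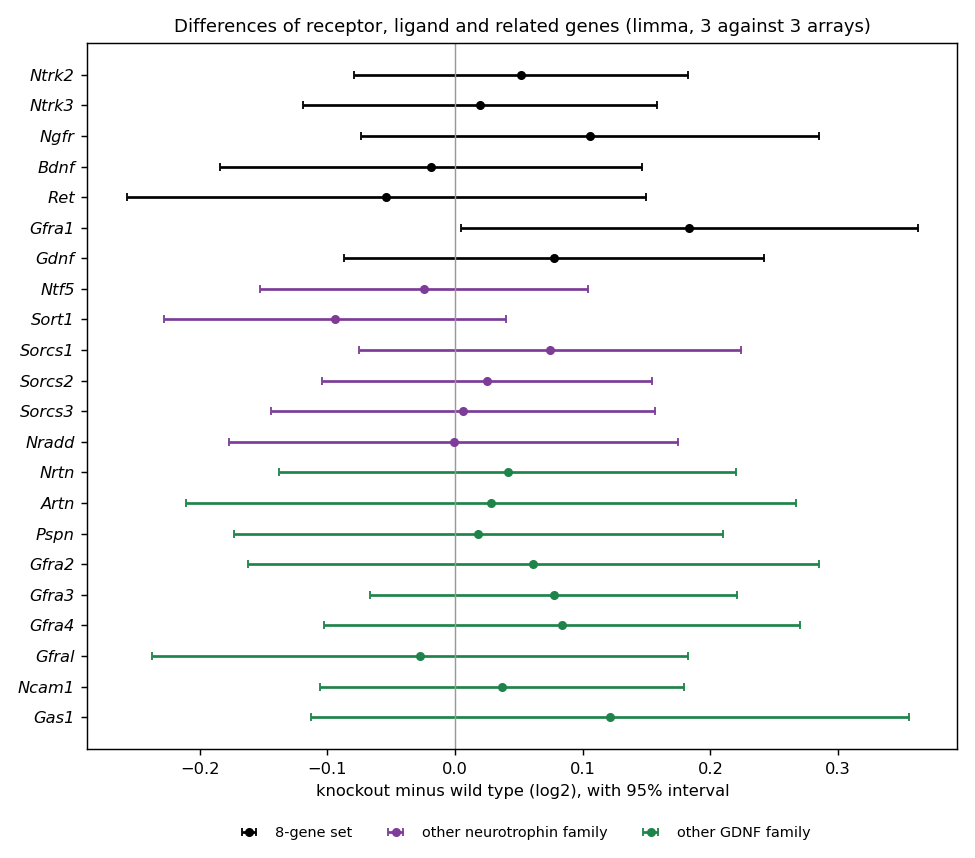
Knockout minus wild type on the log2 scale (horizontal axis) with the 95% interval of limma for 7 genes of the set (black, labelled 8-gene set), 6 other neurotrophin family genes (purple) and 9 other GDNF family genes (green). The Gfra1 interval, from 0.0046 to 0.36, lies just above 0, and every other interval spans 0. Intervals are from the fit with genotype as the only term, without the replicate block.

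The rest of both receptor systems was described in the same way. Of 8 other genes of the neurotrophin system, 6 were measured, 3 above and 3 below 0, with a median of 0.0024. Of these, 0 had an unadjusted p under 0.05 in limma, a limit that 3.43% of all tested clusters passed. Sort1, the gene of sortilin, a co-receptor of p75 for proneurotrophins, read 11.74, 11.68 and 11.69 in the knockout and 11.76, 11.77 and 11.87 in the wild type. The groups did not overlap, as in 8.43% of all tested clusters, with a difference of -0.094 (SE 0.059; limma, adjusted p = 0.9995). Sort1 was lower for all 3 replicate numbers, as were 15.9% of all tested clusters. The related gene Sorcs1 differed by 0.074 (SE 0.066) with overlap, and Ntf5, the gene of neurotrophin-4, by -0.025 (SE 0.057) at a mean of 7.12, below the background reference.

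All 9 other genes of the GDNF system were measured, and 8 of them lay above 0, where 50.7% of all tested clusters did. Their median was 0.041, and 0 had an unadjusted p under 0.05, against 3.43% of all tested clusters. Gas1, a membrane protein related to the GFRA co-receptors that can bind RET, differed most, by 0.12 (SE 0.10). Its knockout arrays read 11.28, 11.24 and 11.64 and its wild-type arrays 11.25, 11.22 and 11.32, so knockout replicate 3 stood apart from the other 5. Gfra4, the persephin co-receptor, differed by 0.084 (SE 0.082), Gfra3, the artemin co-receptor, by 0.077 (SE 0.063), and Gfra2, the neurturin co-receptor, by 0.061 (SE 0.098), each with overlapping groups. The ligand genes Nrtn, Artn and Pspn differed by 0.041, 0.028 and 0.018, and Ncam1, an alternative GDNF receptor, by 0.037. Gfral, with a mean of 5.28, was the 1 gene of these 9 under the background reference and the 1 below 0, at -0.027. Array means of this list were 0.10, -0.035 and 0.0059 in the knockout and -0.0083, -0.028 and -0.038 in the wild type, so the groups overlapped and knockout replicate 1 was highest. The median difference of the list was 0.094 without knockout replicate 2, 0.023 without knockout replicate 1, 0.064 without wild-type replicate 1 and 0.078 without both replicate 2 arrays. Without knockout replicate 2, 1 of the 9 genes had an unadjusted p under 0.05 in limma, as had 1221 of 23410 tested clusters.

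Adaptors and effectors that carry Trk, p75 and RET signals were measured for 24 of 26 listed genes, 11 above and 13 below 0, with a median of -0.00019. Cbl, the ubiquitin ligase that marks active receptor tyrosine kinases for degradation, was the 1 gene of the 24 with an unadjusted p under 0.05, a limit that 3.43% of all tested clusters passed. It read 10.10, 10.13 and 10.05 in the knockout and 10.15, 10.26 and 10.35 in the wild type, a difference of -0.16 (SE 0.067; limma, adjusted p = 0.9995). Every knockout array lay below every wild-type array, and 8.43% of all tested clusters had no overlap in one direction or the other.

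Enzymes that process proneurotrophins, with their inhibitors, were measured for 11 of 13 genes, 7 above and 4 below 0, with a median of 0.033. Over all tested clusters 50.7% lay above 0. Of the 11 genes, 7 averaged above the background reference, and Pcsk1, Plg, Mmp3 and Mmp7 averaged under it. Mmp9, a secreted protease that can cleave proneurotrophins, was the 1 gene of the 11 with an unadjusted p under 0.05, against 3.43% of all tested clusters. It read 7.31, 7.29 and 7.17 in the knockout and 7.38, 7.40 and 7.41 in the wild type, a difference of -0.14 (SE 0.060; limma, adjusted p = 0.9995). The groups did not overlap, as in 8.43% of all tested clusters, and the Mmp9 mean of 7.33 was close to the background reference. With the replicate block, 3 of the 11 genes had an unadjusted p under 0.05, against 8.81% of all tested clusters. Beside Mmp9 these were Plat, the gene of a secreted serine protease, and Serpini1, the gene of neuroserpin, its inhibitor, both named here after their values were seen. Plat differed by 0.18 (SE without the block 0.099) with overlap. Serpini1 differed by -0.14 (SE without the block 0.068) without overlap, as in 8.43% of all tested clusters. Neither passed correction with the block (limma, adjusted p = 0.514 for Plat and 0.52 for Serpini1). Without the block their unadjusted p was 0.094 and 0.0626 in limma.

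Transcripts induced by ERK signalling, which Trk and RET receptors activate, and the feedback inhibitors of that pathway were measured for all 24 genes. Of these 16 lay above and 8 below 0, where 50.7% of all tested clusters lay above 0, and their median was 0.034. The number with an unadjusted p under 0.05 was 0, against 3.43% of all tested clusters. That count was 2 without knockout replicate 1, where 1298 of 23410 tested clusters passed. It was 1 without knockout replicate 2 (1221 of all tested clusters), wild-type replicate 2 (636), wild-type replicate 3 (679) or both replicate 2 arrays (706). The median was 0.016 without knockout replicate 3 and 0.021 without wild-type replicate 1. The immediate early gene Egr1 differed most, by 0.24 (SE 0.13; limma, adjusted p = 0.9995). It read 8.497, 8.10 and 8.27 in the knockout and 8.18, 7.79 and 8.18 in the wild type, so the groups overlapped while knockout was higher within each replicate number, by 0.31, 0.31 and 0.095. With the replicate block its SE was 0.060 (limma, unadjusted p = 0.00568, adjusted p = 0.514). Npas4, an activity-dependent transcription factor gene, differed by -0.15 (SE 0.080), at a mean of 7.17 just under the background reference.

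**Figure D4:**
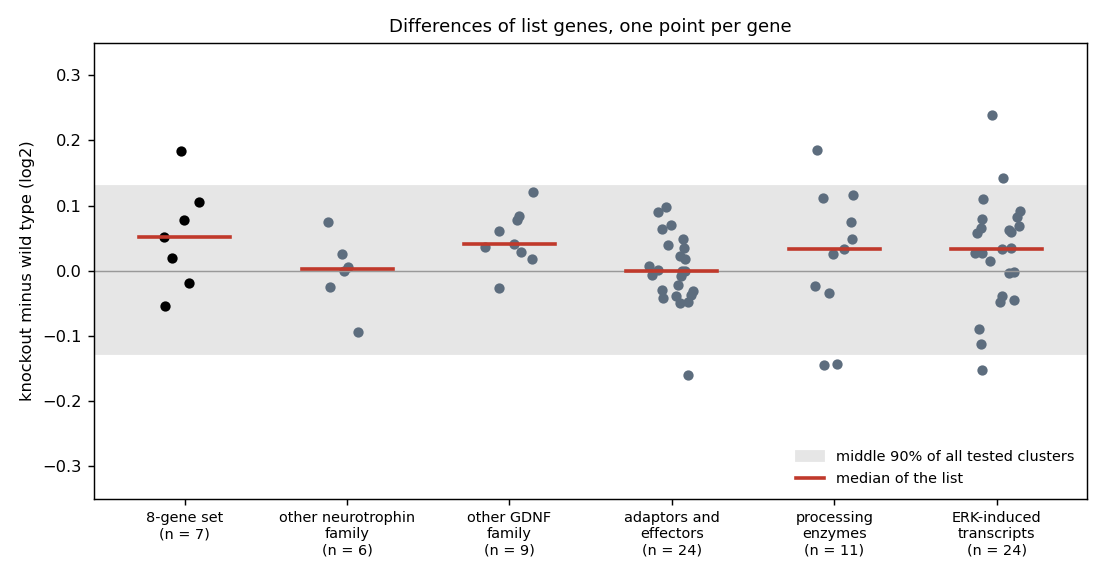
Knockout minus wild type on the log2 scale (vertical axis), 1 point per gene, for the measured genes of the 8-gene set and of 5 lists of the same pathways, with red bars at the list medians and a grey band over the middle 90% of all tested clusters (-0.13 to 0.13). Medians lie between -0.00019 and 0.051, and Gfra1 is the 1 gene of the set above the band. The band is over single clusters and gives no scale for the list medians.

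How the 7 genes varied across the 6 arrays differed from gene to gene. The gap between the lowest and highest array was 0.12 for Ntrk2, 0.14 for Ntrk3, 0.21 for Bdnf, 0.26 for Gdnf, 0.28 for Ret, 0.31 for Ngfr and 0.34 for Gfra1. As a description over 6 arrays that share normalisation and replicate numbers, the pairs of genes ran from a Pearson's r of -0.86 for Ntrk2 and Bdnf to 0.83 for Ntrk3 and Ret. The Ntrk2 signal thus ran mostly opposite to that of Bdnf, but Bdnf averaged 7.08, below the background reference of 7.18. A relation of this receptor and ligand was not tested. The replicate 2 knockout array was highest for both Ntrk3 and Ret. Gfra1 and its partner receptor Ret had an r of 0.11, and Gfra1 and its ligand Gdnf one of -0.25.

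Other transcripts with the most similar values across the 6 arrays were Chrnb2 (r = 0.995) and Zfp629 (0.990) for Gfra1, Camk2b (0.996) and Itpkb (0.996) for Ret, and Pik3ca (0.993) and Asic2 (0.991) for Ngfr. They were Tor1aip2 (0.997) and Glul (0.989) for Ntrk2, Fam135a (0.986) and Ctif (0.985) for Ntrk3, Nlrc5 (0.990) and Ipo4 (0.990) for Bdnf, and Tpm3 (0.968) and Vsig10l (0.955) for Gdnf. With 6 arrays and 10972 or 10973 clusters searched for each gene, values this high are found for many genes: 140 clusters passed an r of 0.95 with Ret, 47 with Gfra1 and 5 with Gdnf.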

How the data were processed

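The authors deposited 1 log2 signal for each transcript cluster of Mouse Gene 1.0 ST arrays, labelled as an array for each animal. Per the submitters' processing notes, the authors used Affymetrix Expression Console, RMA and Transcriptome Analysis Console. RMA gives all arrays 1 distribution and so hides a shift common to most transcripts. The sources used here name no versions.

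Of 35557 clusters, 21789 had 1 annotated gene, 1621 several and 12147 none. The 23410 with a gene were tested with limma 3.58.1 (lmFit, eBayes) in R 4.3.3, with genotype as the only term and Benjamini-Hochberg adjustment over all of them. A difference is knockout minus wild type, with its moderated SE. SEs, intervals and p-values are from this fit unless the replicate block or another alternative described below is named. No filter on dim signal was applied. For 3 against 3 arrays an exact permutation test cannot go below p = 0.1, so none was run. P-values measure the spread between these samples, labelled as separate animals, and 3 arrays per genotype limit the precision. Without the replicate block, this spread includes that between the replicate numbers.

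Where a gene had several single-gene clusters, the one of highest mean was used. Named list genes were those with an unadjusted p under 0.05, or otherwise the 2 largest differences, and further ligand and receptor genes. The genes, lists and tests were chosen with earlier results of these data known. A similar transcript was one of the 2 with the highest Pearson's r among single-gene clusters above the median signal.

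Replicate numbers come from the sample titles, which do not say what they mark. Deviations from the group means correlated at 0.476, 0.485 and 0.455 between arrays of the same number and at -0.26 to -0.20 otherwise, so the numbers were taken as pairing the arrays. The fit with genotype as the only term leaves this pairing out. Fitted with the replicate number as a block, the SE was smaller for each measured gene of the set. It was 0.046 for Ntrk2, 0.050 for Ntrk3, 0.053 for Ngfr, 0.049 for Bdnf, 0.053 for Ret, 0.063 for Gdnf and 0.063 for Gfra1. Alternatives were this replicate block, array weights, cyclic loess, median centring, robust variance, a trend of variance on signal, 2 filters on signal, every row of the table, each array left out and both replicate 2 arrays left out. Tables and figures were made with pandas 2.3.3 and matplotlib 3.10.9.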

Additional observations from a re-analysis of the deposited data

How the results depend on the processing

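None of the 7 genes passed correction under any of 16 alternatives (limma, lowest adjusted p = 0.53 over 109 values, since the filter at the median signal removed Ntrk3, Bdnf and Gdnf), and 104 of these values kept their direction. The other 5 belonged to Ntrk3, at -0.021 without both replicate 2 arrays and -0.026 to 0.045 with each array left out, and to Bdnf, at -0.085 to 0.020 with each array left out. Each gene had 1 cluster, so averaging over clusters was not needed. Gfra1 kept an unadjusted p under 0.05 in 11 of 16 alternatives, over a range of p from 0.016 to 0.147 in limma and of differences from 0.14 to 0.25. The number of genes of the set past that limit was 1, but 0 with every row of the table in the fit, and 0 to 1 with each array left out. It was 0 without knockout replicate 2 or 3 and without wild-type replicate 1 or 3. The counts of 1 among adaptors (Cbl) and processing enzymes (Mmp9) were 0 without both replicate 2 arrays, and also with every row of the table in the fit, and the processing count was 0 with the trend of variance. The median of the processing list was 0.078 without both replicate 2 arrays and -0.0068 to 0.076 with each array left out, the negative value without knockout replicate 1, where the adaptor median was 0.037. The median of the other neurotrophin genes was -0.025 there. With single arrays left out, the adaptor count was 0 to 1, at 0 without knockout replicate 1 or 3 or wild-type replicate 2 or 3. The processing count was 0 to 3, with 3 without knockout replicate 1, 2 without knockout replicate 2 and 0 without each other array. Of 23410 tested clusters, 1298 passed that limit without knockout replicate 1 and 1221 without knockout replicate 2.

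Over all tested clusters the number with an unadjusted p under 0.05 was 803, 2063 with the replicate block, 1331 with every row of the table, 431 with the filter at the median signal, where fewer clusters were tested, and 636 to 1298 with each array left out. The highest counts came without knockout replicate 1 (1298) and knockout replicate 2 (1221). With the replicate block 1 cluster passed correction and otherwise 0, and it changed no call of the 7 genes. The cause of these shifts was not tested. Signal near background limits Bdnf and Gdnf, and the half-widths of the 95% interval, with a median of 0.16 over all tested clusters, limit the size of difference that could be seen.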
